A study of Mus musculus with 17 samples.

Results

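The transcripts described here encode the nuclear end of the canonical Wnt pathway: beta-catenin (Ctnnb1), the 4 DNA-binding TCF/LEF factors (Tcf7, Tcf7l1, Tcf7l2 and Lef1), the BCL9 and Pygopus coactivators (Bcl9, Bcl9l, Pygo1 and Pygo2) and Btrc, which encodes the F-box protein beta-TrCP. They were taken by gene name from the deposited count tables, as 10 genes of 33470 over all tables. The table of model 1 held 10 of them among 26029 genes, and that of model 2 held 8 among 24659 genes, Lef1 and Tcf7l1 being not analysed here in model 2. The members were proposed with the difference between TgSpi1FA-/- leukaemic and preleukaemic blasts in view, so that difference is given below as a description, and its counts support nothing.

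RNA-seq was performed on erythroid blasts of mice that all carry a constitutively expressed Spi1 transgene, whose product, the transcription factor SPI1, drives a preleukaemic erythroid disease. Blasts came from sick mice, were cultured with erythropoietin (EPO), and gave 1 library per mouse. Preleukaemic (PL) blasts depended on EPO and formed no subcutaneous tumours, whereas leukaemic (L) blasts grew without EPO and were tumorigenic. Model 1 asks how loss of Fanca, a gene of the Fanconi anaemia DNA repair pathway, bears on these stages, and model 2 follows progression with Fanca intact. Model 1 (DBA2JxFVB/N background) held 4 TgSpi1FA+/+ PL mice, 3 TgSpi1FA-/- PL mice and 3 TgSpi1FA-/- L mice, with libraries made from 400 ng of RNA and 8 min of fragmentation. Model 2 (DBA2J background) held 4 TgSpi1FA+/+ PL mice and 3 TgSpi1FA+/+ L mice, a stage reached in animals that had received repeated blood transfusions while preleukaemic, with 300 ng of RNA and 2 min of fragmentation. Model, strain and protocol cannot be told apart, and the ages of the animals are not given in the sources used here. Libraries are named by the end of their titles, and the values of a group are given in the order preleukemic_138, _445, _451 and _479 (TgSpi1FA+/+ PL) and preleukemic_40, _77 and _224 (TgSpi1FA-/- PL), then leukemic_26, _28 and _39 (TgSpi1FA-/- L), and in model 2 preleukemic_633, _663, _812 and _837, then leukemic_601, _606 and _921. The stage of the TgSpi1FA-/- PL libraries follows their titles, since another of their labels and the column names call them leukaemic. The paper reports a Kit mutation in the mouse of leukemic_26 and an Nras mutation in those of leukemic_28 and leukemic_39. Differences between these libraries cannot be told apart from the mutation carried. The paper ties the leukaemic cells of model 2 to activating Kit mutations, so the mix of mutations also differs between the models.

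In cells without a Wnt signal, beta-catenin is phosphorylated in a destruction complex and marked by beta-TrCP for degradation, and TCF/LEF factors sit on their targets with Groucho (TLE) corepressors. When beta-catenin accumulates it enters the nucleus, binds TCF/LEF and recruits BCL9, which in turn holds Pygopus. In blood, TCF1 (Tcf7) and LEF1 are best known from T lymphocyte development, while TCF7L2 is the widely expressed family member of many other tissues. Because beta-catenin is controlled mainly by degradation, its transcript level need not report the activity of the pathway, and no protein was measured here.

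Total counts ranged from 29964576 to 38217654 per library in model 1 and from 37726753 to 40514205 in model 2. Fanca, the deleted gene, lay between 28.2 and 83.5 CPM (counts scaled to a common library size, normalised by TMM) in TgSpi1FA+/+ PL blasts, between 0.615 and 2.30 CPM in TgSpi1FA-/- PL blasts and between 0.959 and 1.67 CPM in TgSpi1FA-/- L blasts. Spi1 lay between 467 and 1061 CPM in TgSpi1FA+/+ PL and between 670 and 781 CPM in TgSpi1FA-/- PL blasts, but read 630, 220 and 3.88 CPM in the TgSpi1FA-/- L libraries. The erythroid markers summed to 2569 to 5019 CPM in TgSpi1FA-/- L libraries against 7012 to 7764 CPM in TgSpi1FA-/- PL libraries, and 3 of them fell by edgeR's quasi-likelihood test, Hbb-bt (log2 fold change -5.94, adjusted p = 0.0265), Ermap (-2.19, 0.00241) and Klf1 (-1.27, 0.00626). B lymphoid markers (at most 0.548 CPM), myeloid markers (at most 10.1 CPM) and stromal and endothelial markers (at most 3.68 CPM) were low in every library of both models. Before any result, preleukemic_445 and preleukemic_479 have to be set apart: a chi-square test of their counts gave 8.53 per degree of freedom, where the other pairs within a group of model 1 gave 114.2 to 372.0. Summing them into 1 library changed no call among the members between the PL genotypes. A gene is called changed where its adjusted p was under 0.05 with at least a 1.5-fold change. In whole cultures, fewer cells of a type and less RNA per cell cannot be told apart.

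Promoter windows, the 250 bases before a RefSeq transcription start (build GRCm38.p6), were found for 8 of the 10 members and for neither Bcl9l nor Btrc. They are shown for the members at the extremes of the data, Tcf7l2, which was lower in the leukaemic TgSpi1FA-/- libraries, and Pygo1, which had at most 1 count in the PL libraries of model 1 and 588 in a leukaemic one. In the sequences, written 5′ to 3′ in the direction of the gene, capitals mark the words searched on either strand: a TCF/LEF word (CTTTG followed by AA, AT, TA or TT), an ETS word of the SPI1 type (GAGGAA) and a GATA word (AGATAA).
Tcf7l2, first start, chr19:55741560-55741809, plus strand: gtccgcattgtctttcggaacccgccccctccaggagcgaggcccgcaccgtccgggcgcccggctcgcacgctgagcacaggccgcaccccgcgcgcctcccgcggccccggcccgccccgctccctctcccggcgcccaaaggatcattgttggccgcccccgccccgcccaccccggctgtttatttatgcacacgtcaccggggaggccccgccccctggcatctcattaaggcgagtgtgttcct
Tcf7l2, internal start, chr19:55895071-55895320, plus strand: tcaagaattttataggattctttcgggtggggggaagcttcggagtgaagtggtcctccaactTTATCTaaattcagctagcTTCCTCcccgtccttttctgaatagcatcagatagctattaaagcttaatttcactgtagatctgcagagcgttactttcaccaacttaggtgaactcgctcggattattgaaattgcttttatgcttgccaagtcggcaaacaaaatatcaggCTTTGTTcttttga
Pygo1, chr9:72925395-72925644, plus strand: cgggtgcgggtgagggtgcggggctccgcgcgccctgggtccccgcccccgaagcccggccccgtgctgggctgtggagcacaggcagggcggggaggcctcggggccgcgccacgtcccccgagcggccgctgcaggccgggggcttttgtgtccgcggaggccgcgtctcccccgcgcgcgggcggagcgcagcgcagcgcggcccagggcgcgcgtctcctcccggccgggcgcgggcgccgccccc
The first window of Tcf7l2 held none of the words, with 72.8% G or C and 30 CpG dinucleotides. Its internal window, with 40.8% G or C and 7 CpG, held a TCF/LEF word 14 bases before the start, an ETS word 168 bases before it and a GATA word 187 bases before it. Pygo1 held none and was 84.0% G or C, with 41 CpG. Over the first windows of the 8 members, a TCF/LEF word occurred in 0, an ETS word in 1 (Tcf7, 75 bases before the start) and a GATA word in 0, against 14.9%, 23.1% and 10.3% of the 27025 first windows of all genes. The members' first windows held 11 (Lef1) to 41 CpG, where the median of all genes was 6. In the first window of Tcf7, the ETS word lay in frame after an ATG, with no stop codon from there to the end of the window. It may thus be coding sequence of a longer Tcf7 transcript and not promoter, which was not tested. A match is a run of letters and not a binding site.

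Beta-catenin was by far the most abundant transcript of the set per length of exon. Ctnnb1 (ENSMUSG00000006932, chr9:120929216-120960507, plus strand, GRCm38) averaged 105 CPM per kb of exon in TgSpi1FA+/+ PL, 101 in TgSpi1FA-/- PL and 138.3 in TgSpi1FA-/- L blasts of model 1, and 83.9 and 69.4 in PL and L blasts of model 2. Pygo2 came next in every group, at 11.8 to 37.1 CPM per kb. In PL blasts the order then ran Tcf7l2, Bcl9, Btrc and Bcl9l in model 1 with TgSpi1FA-/- means of 3.39, 1.144, 0.951 and 0.645 CPM per kb. Bcl9, Btrc and Bcl9l overlapped in range in that group, and Tcf7l2 lay above them in each of its libraries. Tcf7, at 0.0445, stood below all of these in PL blasts of that genotype and at 14.0 CPM per kb, behind Ctnnb1 and Pygo2 alone, in its leukaemic blasts. Bcl9 followed there at 11.9 CPM per kb, with a range that overlapped with that of Tcf7, and Btrc at 3.02, Bcl9l at 1.59, Pygo1 at 0.708 and Tcf7l2 at 0.539 came after them. The plot of mean levels per kb shows that Tcf7 crossed the order of the group means while Ctnnb1 and Pygo2 held their places. That leukaemic mean of Tcf7 was carried by leukemic_28 and leukemic_39, at 68.4 and 38.96 CPM. In leukemic_26 Tcf7 read 2.99 CPM, so its place does not hold for each library.

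**Figure D1:**
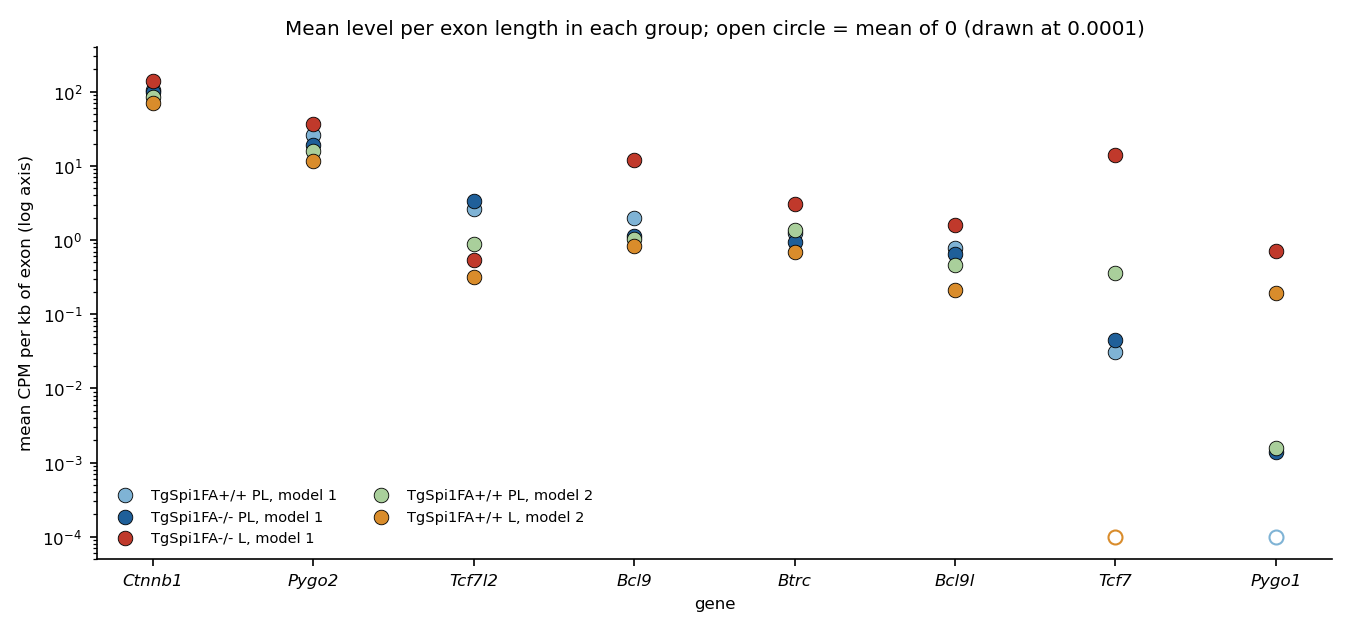
Mean CPM per kb of exon (log axis) of 8 members in each of the 5 groups, 1 colour per group, with a group mean of 0 drawn as an open circle at the foot. Ctnnb1 lies between 69.4 and 138.3 in all groups, whereas Tcf7 lies at 14.0 in TgSpi1FA-/- leukaemic blasts and at or below 0.363 in the others.

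In leukaemic TgSpi1FA-/- blasts Ctnnb1 read 700.5, 719 and 735 CPM, the narrowest spread of any member in any group with reads in every library, its highest library being 1.05 times its lowest. The TgSpi1FA-/- PL libraries read 458, 514 and 593 CPM, and the TgSpi1FA+/+ PL libraries read 665, 427, 605 and 483 CPM. All 3 leukaemic libraries thus lay above all 7 PL libraries, by a modest step: the fitted log2 fold change over TgSpi1FA-/- PL was 0.46 ± 0.18 (SE). In model 2 the L libraries read 561, 260 and 260 CPM and the PL libraries read 628, 383, 317 and 415 CPM, so both groups overlapped. Up to 759 exon bases of Ctnnb1 are shared with other genes, including Ulk4 on the opposite strand, and the strand setting of the counting is not given in the sources used here.

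Tcf7 (ENSMUSG00000000782, chr11:52252371-52283014, minus strand) was nearly absent from every PL library of model 1 and present in all 3 TgSpi1FA-/- leukaemic ones. It read 2.99, 68.4 and 38.96 CPM in the TgSpi1FA-/- L libraries, from 109, 2676 and 1536 counts. The TgSpi1FA-/- PL libraries read 0.259, 0.0328 and 0.0585 CPM, from 8, 1 and 2 counts, and the TgSpi1FA+/+ PL libraries read 0.199, 0, 0 and 0.127 CPM, from 7, 0, 0 and 4 counts. No leukaemic library overlapped with a PL library, but the leukaemic libraries themselves spanned a factor of 22.9. The ratio of group means was 315 and the fitted log2 fold change 8.26 ± 1.64, and Tcf7 passed the filter on low counts only through its leukaemic group. In model 2, Tcf7 had 0 counts in all 3 L libraries and 146, 0, 2 and 3 counts (3.68, 0, 0.0533 and 0.0742 CPM) in the PL libraries, so its counts there came almost wholly from preleukemic_633.

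As a sum, T lymphoid markers were, like Tcf7, higher in TgSpi1FA-/- L than in TgSpi1FA-/- PL libraries of model 1. Summed over the 10 of 15 markers in the table, they reached 19.8 to 42.1 CPM in TgSpi1FA-/- L libraries, 0.877 to 1.54 CPM in TgSpi1FA-/- PL libraries and 2.24 to 14.9 CPM in TgSpi1FA+/+ PL libraries. Of the 4 markers tested between the TgSpi1FA-/- stages, 3 rose by edgeR's quasi-likelihood test, where 6.82% of all genes were called higher. They were Trbc2, a T cell receptor constant gene (log2 fold change 8.16, adjusted p = 0.0258), Lck, a T cell kinase (2.168, adjusted p = 0.0293), and Thy1, a surface antigen (8.66, adjusted p = 0.0462). Against TgSpi1FA+/+ PL libraries edgeR called 0 of the 4, with Trbc2 at 2.09 (adjusted p = 0.209), Lck at 1.29 (0.113) and Thy1 at 2.06 (0.418). Thy1 had 0 counts in leukemic_39, where Tcf7 read 38.96 CPM, and 14.9 CPM in leukemic_26, where Tcf7 was lowest. Among the markers that define T cells, Cd5 had 0 counts in all 3 L libraries, Cd3e had 1, 0 and 0, Cd2 had 0, 1 and 0, and Cd3g had 10, 2 and 0, while Cd3d and Cd4 were not analysed here in model 1. Trbc1, the other beta constant gene, read 20.2, 20.5 and 14.5 CPM in the L libraries. In model 2 the markers summed to 0.940 to 5.07 CPM in PL and 4.41 to 8.17 CPM in L libraries, in which Tcf7 had 0 counts. The part of such cells in the Tcf7 level was not tested.

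Tcf7l2 (ENSMUSG00000024985, chr19:55741820-55933654, plus strand) ran the other way. It read 28.8, 25.5 and 34.9 CPM in TgSpi1FA-/- PL libraries and 21.3, 19.7, 30.1 and 21.7 CPM in TgSpi1FA+/+ PL libraries, which overlapped. The L libraries read 8.80, 4.24 and 1.142 CPM, all below every PL library of model 1, with a ratio of means of 0.159 and a fitted log2 fold change of -2.65 ± 0.60. In model 2, Tcf7l2 read 0.0513, 0.305 and 7.89 CPM in the L libraries and 8.65, 3.67, 3.79 and 15.2 CPM in the PL libraries. Libraries leukemic_601 and leukemic_606 thus lay below every PL library and leukemic_921 inside their range.

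The order of the leukaemic libraries differed between Tcf7 and Tcf7l2, leukemic_28 being highest for Tcf7 and leukemic_26 for Tcf7l2. Genes with the pattern most like that of Tcf7, taken as the smallest mean absolute difference of centred log2 CPM over the 10 libraries of model 1, were B4galt2 (0.62), Fam92a (0.64) and Tmtc2 (0.69), against a median of 3.08 over all tested genes. For Tcf7l2 they were Abcb4, Sgpp1 and Qprt (0.28 each), against a median of 1.22.

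The remaining TCF/LEF members were close to the limit of detection. Tcf7l1 (ENSMUSG00000055799, chr6:72626378-72789254, minus strand) had 6, 4 and 23 counts in the L libraries, 0 in all TgSpi1FA-/- PL libraries, and 1, 0, 0 and 0 in TgSpi1FA+/+ PL libraries. Against a floor of 3 counts per library it was at least 3.001-fold higher in TgSpi1FA-/- L than PL blasts, and at least 1.41-fold without leukemic_39. Lef1 (ENSMUSG00000027985, chr3:131110471-131224356, plus strand) had 1, 0 and 1 counts in the L libraries and a single count among the 7 PL libraries, in preleukemic_224. At these depths of 29964576 counts or more, no difference of Lef1 was detectable.

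**Figure D2:**
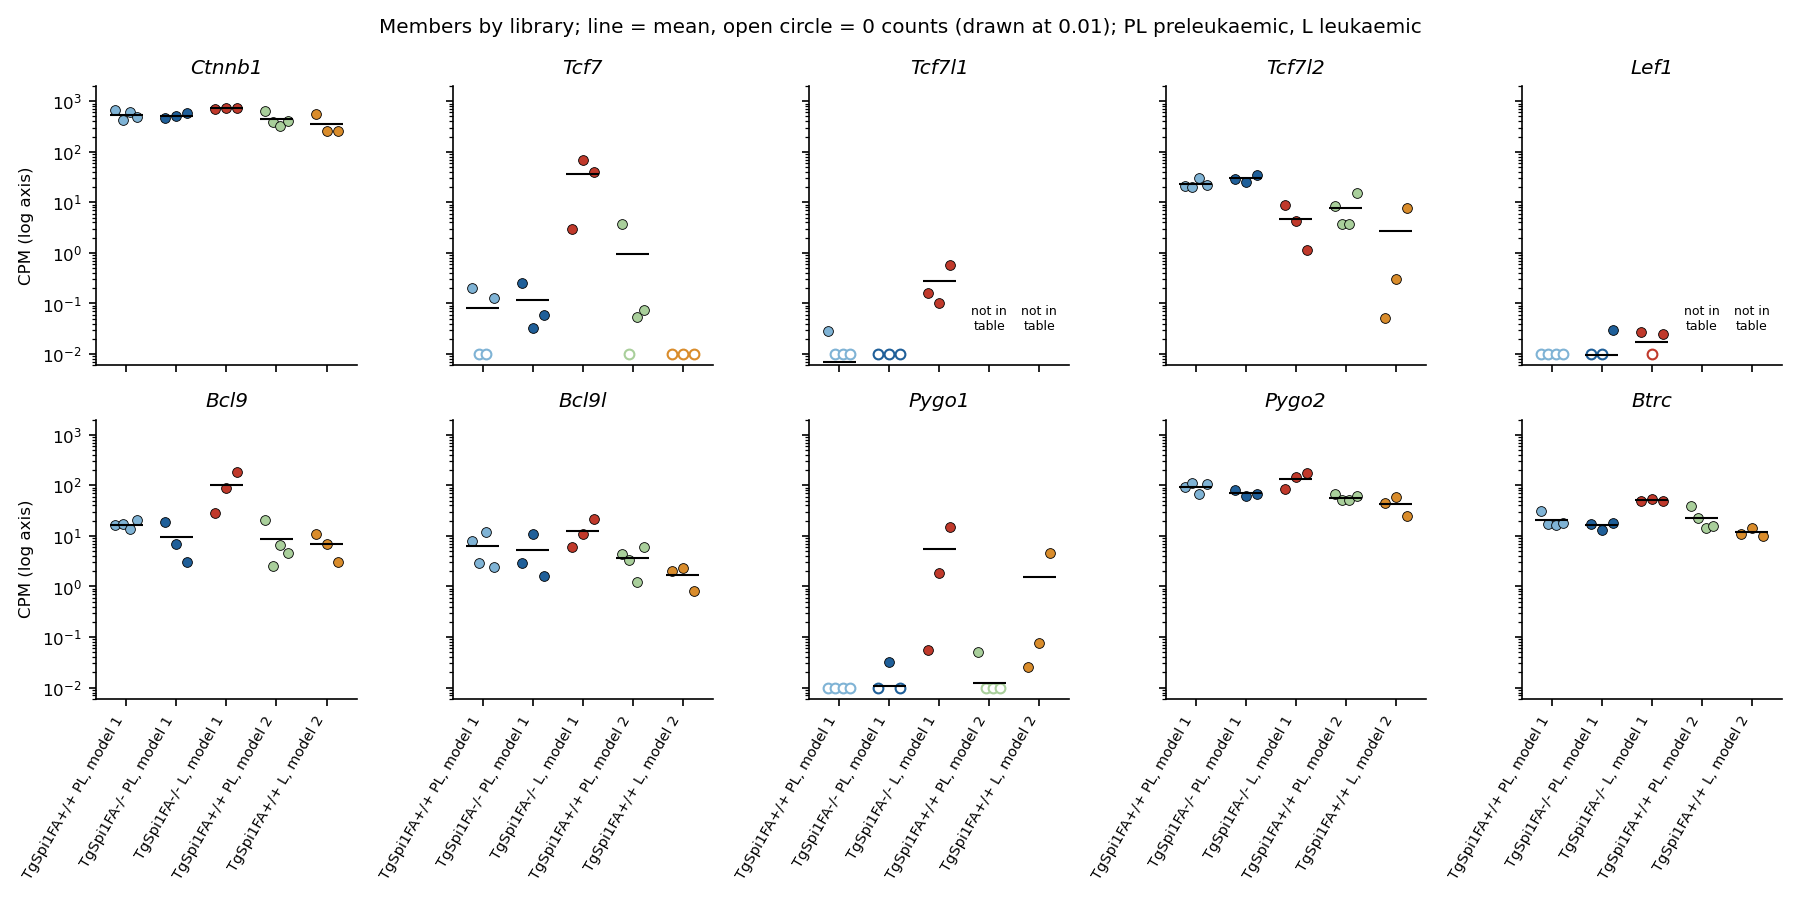
CPM of each of the 10 members (log axis) in each library of the 5 groups, with a line at the group mean and an open circle at the foot for 0 counts (PL, preleukaemic; L, leukaemic). The 3 leukaemic TgSpi1FA-/- libraries lie apart from the PL libraries of model 1 for Tcf7 (2.99 to 68.4 CPM), Bcl9, Btrc and, on the low side, Tcf7l2, and overlap with them for Bcl9l.

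Among the coactivators, Bcl9 (ENSMUSG00000038256, chr3:97203662-97297917, minus strand), which bridges beta-catenin to Pygopus, read 27.8, 87.6 and 185 CPM in the L libraries. It read 19.1, 6.86 and 2.98 CPM in TgSpi1FA-/- PL libraries and 16.2, 16.8, 13.7 and 20.5 CPM in TgSpi1FA+/+ PL libraries. Every L library lay above every PL library, with a ratio of means of 10.4 over TgSpi1FA-/- PL and a fitted log2 fold change of 3.37 ± 0.78. Both TgSpi1FA-/- groups were spread widely, their highest library being 6.42 (PL) and 6.64 (L) times the lowest, where preleukemic_40 was the highest PL library. In model 2, Bcl9 read 11.1, 7.01 and 3.04 CPM in the L libraries and 20.7, 2.60, 6.56 and 4.57 CPM in the PL libraries, which overlapped.

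Genes around Bcl9 were higher in the same libraries. The 118 tested genes within 5 Mb of it had a median log2 fold change of 1.27 between TgSpi1FA-/- L and PL blasts, and 42 of them rose and 1 fell (edgeR, adjusted p under 0.05 with at least a 1.5-fold change), where 13.3% of all 13393 genes passed in either direction. Relative to the mean of the TgSpi1FA-/- PL libraries, on a log2 CPM scale with a prior count of 2, the median neighbour stood at 0.59, 1.55 and 1.57 in the TgSpi1FA-/- L libraries, and Bcl9 itself at 1.92, 3.57 and 4.65. Nras, a single gene picked outside the lists and farther along chromosome 3, read 274, 928 and 1077 CPM in the same libraries. It read 142 to 230 CPM in TgSpi1FA-/- PL blasts. Pygo2, also on chromosome 3, had a smaller step around it: its 114 neighbours had a median of 0.38, with 19 that rose and 3 that fell. The 80 neighbours of Tcf7 had a median of -0.04, the 40 of Tcf7l2 of 0.09, the 100 of Btrc of 0.19, the 67 of Ctnnb1 of -0.08 and the 64 of Bcl9l of -0.11. What part the neighbourhood has in the level of Bcl9 was not tested.

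**Figure D3:**
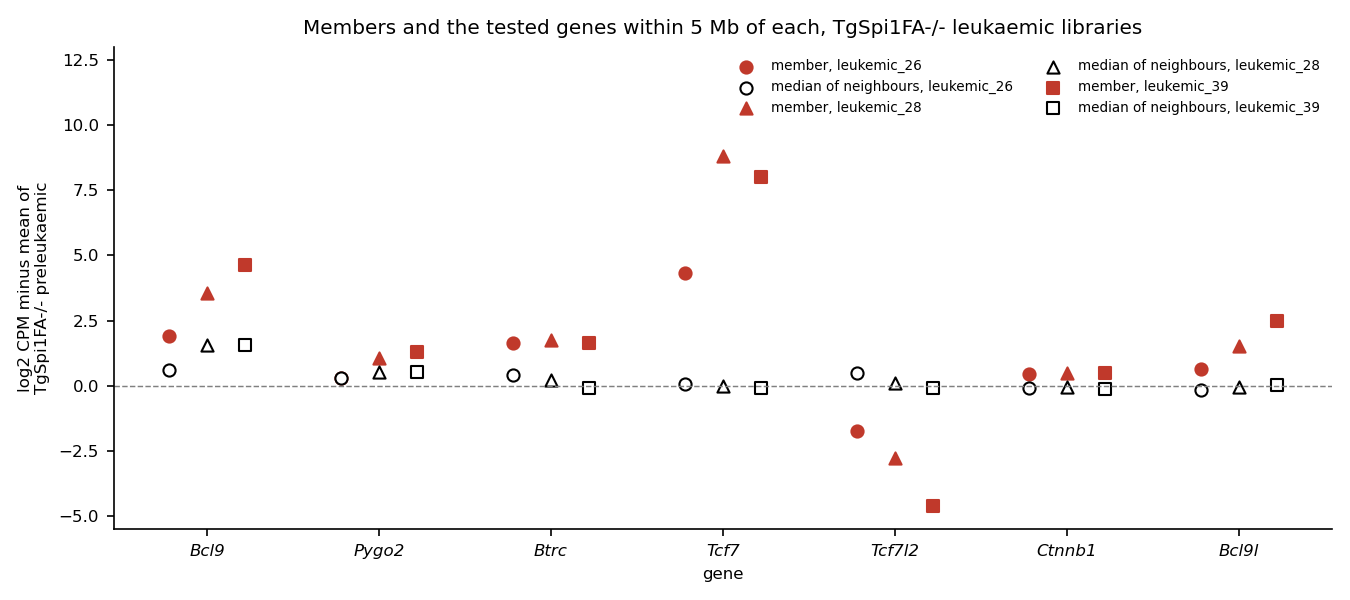
Log2 CPM (prior count 2) of 7 members (filled) and the median of the tested genes within 5 Mb of each (open) in the 3 TgSpi1FA-/- leukaemic libraries, as the difference from the mean of the TgSpi1FA-/- preleukaemic libraries. The medians of the neighbours are farthest from 0 at Bcl9, where they lie at 0.59, 1.55 and 1.57, while those of Tcf7 stay between -0.08 and 0.06.

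Bcl9l (ENSMUSG00000063382, chr9:44482825-44511896, plus strand), the paralogue of Bcl9, read 5.97, 10.9 and 21.3 CPM in the L libraries and 2.94, 10.9 and 1.64 CPM in TgSpi1FA-/- PL libraries. It read 7.92, 2.87, 12.1 and 2.44 CPM in TgSpi1FA+/+ PL libraries. The groups overlapped, and the fitted log2 fold change of 1.30 ± 0.86 over TgSpi1FA-/- PL moved to 2.48 without preleukemic_77 and 0.74 without leukemic_39. In model 2 it read 2.05, 2.28 and 0.823 CPM in the L libraries and 4.36, 3.30, 1.23 and 6.03 CPM in the PL libraries, again with overlap. Bcl9l shares up to 662 exon bases with other genes, Cxcr5 among them, on the opposite strand.

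Pygo1 (ENSMUSG00000034910, chr9:72925645-72952181, plus strand), a Pygopus reader of methylated histone H3, was detected mainly in single leukaemic libraries of both models. It had 2, 72 and 588 counts in the L libraries (0.0548, 1.84 and 14.9 CPM), 1 count over the 3 TgSpi1FA-/- PL libraries, in preleukemic_77, and 0 in all 4 TgSpi1FA+/+ PL libraries. The ratio of pooled levels to TgSpi1FA-/- PL blasts was 550 (95% counting interval 98.4 to 21756), and 93.5 (16.3 to 3743) without leukemic_39. In model 2 it had 1, 3 and 160 counts in the L libraries and 2, 0, 0 and 0 counts in the PL libraries. In both models most of the reads thus came from 1 mouse, leukemic_39 and leukemic_921, and the level of leukemic_26 or leukemic_601 was no higher than a few counts.

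Pygo2 (ENSMUSG00000047824, chr3:89430214-89435128, plus strand) read 84.8, 146 and 173 CPM in the L libraries and 81.2, 62.2 and 67.2 CPM in TgSpi1FA-/- PL libraries. Library leukemic_26 stood just above the highest of these, preleukemic_40, and the fitted log2 fold change was 0.94 ± 0.27. TgSpi1FA+/+ PL libraries read 92.5, 109, 67.7 and 106 CPM, so against them the L libraries overlapped. In model 2 it read 44.3, 59.1 and 24.6 CPM in the L libraries and 68.1, 50.6, 50.5 and 60.5 CPM in the PL libraries, with overlap.

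After Ctnnb1, Btrc (ENSMUSG00000025217, chr19:45363734-45530013, plus strand) was the most even of the members that were higher. It read 50.0, 53.5 and 49.7 CPM in the L libraries, a span of 1.08 times, and 17.1, 13.3 and 17.8 CPM in TgSpi1FA-/- PL libraries. TgSpi1FA+/+ PL libraries preleukemic_445, _451 and _479 read 17.5, 16.5 and 17.7 CPM, and preleukemic_138 stood apart at 31.7 CPM, still below every L library. The ratio of means over TgSpi1FA-/- PL was 3.18 and the fitted log2 fold change 1.67 ± 0.27. In model 2 the L libraries read 10.8, 14.6 and 9.85 CPM and the PL libraries read 39.1, 22.4, 14.1 and 15.7 CPM. There the L libraries were on the low side, and leukemic_606 alone overlapped with the PL range.

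Between TgSpi1FA-/- L and PL blasts, 7 members passed the filter, Tcf7 only through its leukaemic group. In the fit across all genes 4 of them lay past the limits set for a call on the high side (Tcf7, Bcl9, Pygo2 and Btrc) and 1 on the low side (Tcf7l2), where 13.3% of all genes passed (6.82% higher and 6.49% lower). Libraries did not overlap for 5 of the 7 on the high side and 1 on the low side, where 38.7% of all genes did not overlap (19.4% higher and 19.3% lower). These differences led to the choice of the members, so the counts are no test of them. Against the TgSpi1FA+/+ PL libraries, Tcf7 (log2 fold change 8.73), Btrc (1.29) and Tcf7l2 (-2.29) lay past these limits, where 7.01% of all genes passed. Bcl9 (2.58) and Pygo2 (0.52) did not reach them there. That comparison shares the leukaemic libraries, so it too is a description and no test of the members. With single libraries left out, the fitted log2 fold change of Tcf7 over TgSpi1FA-/- PL ranged from 7.46 (without leukemic_28) to 9.52 (without preleukemic_40). That of Bcl9 ranged from 2.60 (without leukemic_39) to 4.34 (without preleukemic_40), and that of Tcf7l2 from -3.46 (without leukemic_26) to -2.16 (without leukemic_39). Btrc moved less, from 1.56 to 1.76. The count of 5 depended on the libraries: it was 1 without leukemic_28, without preleukemic_77 or without preleukemic_224, 3 without leukemic_39 or without preleukemic_40, 6 without leukemic_26, and 2 when the TgSpi1FA+/+ PL libraries were kept out of the fit.

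The first of the 2 tested comparisons asked whether loss of Fanca changed the members before leukaemia. It shares the TgSpi1FA-/- PL libraries with the comparison on which the members were proposed. Between TgSpi1FA-/- and TgSpi1FA+/+ PL blasts of model 1, none of the 6 members tested changed by edgeR's quasi-likelihood test, and 0 had an unadjusted p under 0.05. Tcf7 is not counted among them, since it passed the filter only through the leukaemic libraries and had 8 counts or fewer in each PL library. Adjusted p of the 6 lay between 0.681 (Pygo2) and 0.955 (Bcl9l), and their libraries overlapped, where 8.53% of all genes did not overlap. Of all genes, 0.00747% were called, which is 1 gene, the pseudogene Rpsa-ps10 (log2 fold change -8.89, adjusted p = 3.69e-07), whose reads may be shared with its parent gene. The genes called were 2 without preleukemic_224, 5 without preleukemic_138, 16 without preleukemic_451 and 250 by DESeq2, none of them a member. Fanca itself had a log2 fold change of -5.26 and missed the threshold (adjusted p = 0.0759). The median log2 fold change of the 6 members was -0.33, against 0.00 over all genes, for which 8.65% had an unadjusted p under 0.05. Since the members were proposed on a comparison with the same TgSpi1FA-/- PL libraries, their choice alone can lower this median.

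The intervals show what this comparison could resolve. They treat the nearly alike libraries preleukemic_445 and preleukemic_479 as independent, and are too narrow if these are not. Ctnnb1 differed by -0.06 on the log2 scale, with a 95% interval from -0.45 to 0.33. Pygo2 (-0.42, from -1.02 to 0.18) and Btrc (-0.38, from -0.97 to 0.22) were bounded less closely, and Btrc came to -0.10 without preleukemic_138. The intervals of Tcf7l2 (0.36, from -0.88 to 1.59), Bcl9 (-0.80, from -2.42 to 0.82) and Bcl9l (-0.29, from -2.18 to 1.59) also held differences of more than 1.5 times in both directions, Bcl9l being 0.12 without preleukemic_224 and 0.22 without preleukemic_451, and Bcl9 -0.38 without preleukemic_224 and -1.77 without preleukemic_40. The fitted value of Tcf7, 0.47, turned to -0.80 without preleukemic_40 and tells nothing at these counts.

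The second tested comparison asked whether the members changed at progression with Fanca intact. Between TgSpi1FA+/+ L and PL blasts of model 2, the 6 members tested all had negative log2 fold changes, and none passed the threshold by edgeR. The values were -0.27 ± 0.36 for Ctnnb1 (adjusted p = 0.706), -1.51 ± 1.42 for Tcf7l2 (0.587), -0.29 ± 0.77 for Bcl9 (0.864), -1.12 ± 0.65 for Bcl9l (0.373), -0.43 ± 0.31 for Pygo2 (0.470) and -0.96 ± 0.42 for Btrc (0.255). Btrc was the nearest to a change, with an unadjusted p of 0.0526 and a 95% interval from -2.04 to 0.12. The share of all genes called was 0%, with 19.9% of the 12970 genes at an unadjusted p under 0.05 and 470 genes called by DESeq2, none of them a member, and 1 gene was called by edgeR without leukemic_601 or without leukemic_921. The libraries overlapped for all 6 members, while 20.1% of all genes did not overlap. The median log2 fold change of the 6 members was -0.69, against -0.03 for all genes. Such a median was not particular to the members. The lists of pathway partners read below ranged from -1.43 (membrane partners) and -0.80 (general coactivators) to -0.14 (corepressors and inhibitors). Erythroid markers had a median of -1.12.

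Single libraries weighed on several of these values in model 2. Tcf7l2 came to -5.41 without leukemic_921, the one L library that kept it, and Bcl9 turned to 0.62 without preleukemic_633 and to 0.08 without leukemic_921. Btrc came to -0.57 without preleukemic_633, and Ctnnb1 to -0.04 without preleukemic_633 and -0.73 without leukemic_601. Erythroid markers were lower here too, at 3416 to 6201 CPM in L and 6386 to 10818 CPM in PL libraries.

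Set side by side, Tcf7, Bcl9, Pygo2 and Btrc were higher in TgSpi1FA-/- L than in TgSpi1FA-/- PL libraries of model 1. None of them was higher as a group at the leukaemic stage of model 2. Tcf7l2 had the lower value at the leukaemic stage in both models (-2.65 ± 0.60 and -1.51 ± 1.42). In model 2 its libraries overlapped and it was not called. The difference between the models was not tested, since the members were chosen from one side of it. It cannot be told apart from the mix of mutations, the strain or the protocol.

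**Figure D4:**
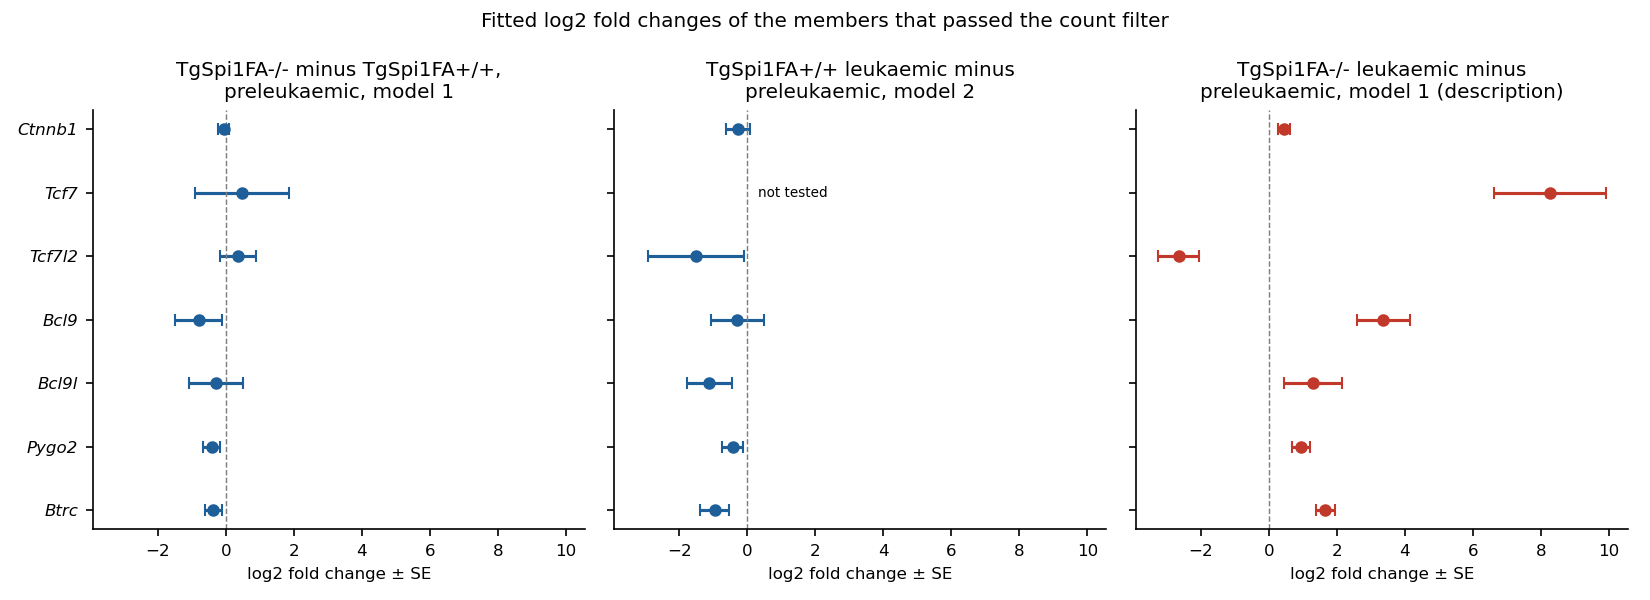
Log2 fold changes ± SE of the members that passed the count filter, for TgSpi1FA-/- against TgSpi1FA+/+ preleukaemic blasts (left), TgSpi1FA+/+ leukaemic against preleukaemic blasts of model 2 (middle), and TgSpi1FA-/- leukaemic against preleukaemic blasts of model 1 (right, a description of the difference on which the members were proposed). The values lie between -0.80 and 0.47 on the left and between -1.51 and -0.27 in the middle, none of them called, and between -2.65 and 8.26 on the right.

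A further deposited table gave 7 of the model 1 mice again, the leukaemic TgSpi1FA-/- and the TgSpi1FA+/+ PL animals, with 35497594 to 171572736 counts per library and all 10 members among 31633 genes. It comes from the same mice, so it repeats the measurement and not the animals, and preleukemic_445 and preleukemic_479 were less alike in it (chi-square of 350 per degree of freedom, against 393 to 742 for the other pairs). Tcf7 read 0.543, 23.4 and 13.2 CPM in the TgSpi1FA-/- L libraries and 0.223, 0.0114, 0.0653 and 0.107 CPM in the TgSpi1FA+/+ PL libraries, which keeps the order of the leukaemic libraries at a lower level, and places leukemic_26 only a few times above preleukemic_138. Bcl9 read 31.5, 88.0 and 96.8 CPM against 10.4, 8.68, 14.9 and 8.43 CPM, without overlap, where 25.7% of all genes in the first table did not overlap between these groups. Tcf7l2 read 6.75, 2.19 and 0.464 CPM against 15.5, 19.8, 16.0 and 12.2 CPM, again all lower.

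In the same table Btrc read 39.8, 35.0 and 30.4 CPM in the TgSpi1FA-/- L libraries against 27.9, 12.7, 13.8 and 16.6 CPM in the TgSpi1FA+/+ PL libraries, with preleukemic_138 again the highest PL library. Pygo2 read 90.4, 163 and 98.0 CPM against 82.0, 73.0, 70.5 and 74.2 CPM, so that it did not overlap here although it had in the first table. Pygo1 had 2, 140 and 233 counts against 0 in all 4 PL libraries. Bcl9l read 7.03, 11.9 and 5.85 CPM against 3.82, 6.26, 16.3 and 1.46 CPM and overlapped, its level in leukemic_39 being 21.3 CPM in the first table. Fitted log2 fold changes between these groups in the first and the further table were 8.73 and 6.90 for Tcf7, 2.58 and 2.76 for Bcl9, -2.29 and -2.33 for Tcf7l2, 1.29 and 0.98 for Btrc, 0.52 and 0.64 for Pygo2, 0.40 and 0.37 for Ctnnb1 and 1.01 and 0.24 for Bcl9l.

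**Figure D5:**
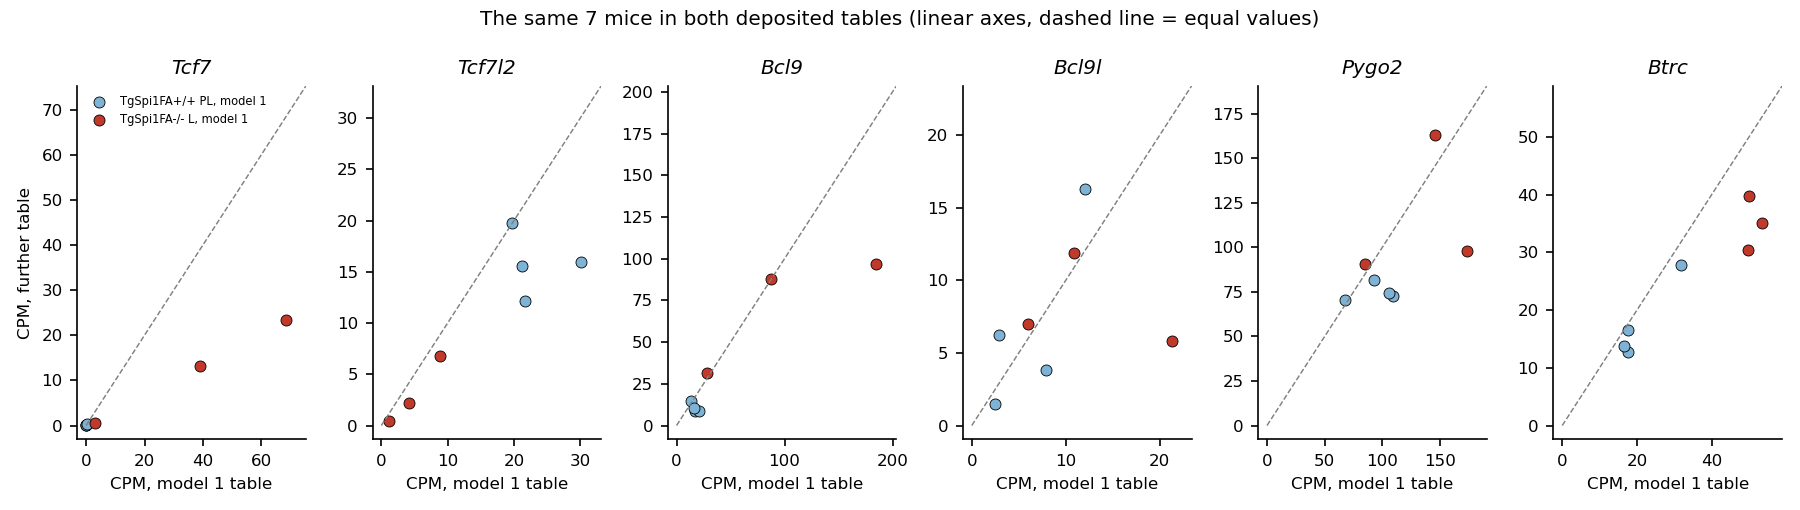
CPM of 6 members in the 7 mice that both deposited tables hold, with the model 1 table on the x axis and the further table on the y axis (linear axes, dashed line at equal values, red leukaemic TgSpi1FA-/- and blue preleukaemic TgSpi1FA+/+). The leukaemic libraries lie apart from the others on both axes for Tcf7l2, Bcl9 and Btrc, and Bcl9l of leukemic_39 reads 21.3 CPM on one axis and 5.85 CPM on the other.

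The partners of these proteins were read from lists of pathway genes. In the 2 tested comparisons, 0 genes of the corepressor, coactivator, destruction complex, target and membrane partner lists were called. Between TgSpi1FA-/- L and PL blasts, 1 of 15 tested corepressors and beta-catenin inhibitors rose, Ctnnbip1, which encodes ICAT, an inhibitor that keeps beta-catenin from TCF (log2 fold change 2.40, adjusted p = 0.0154), where 6.82% of all genes were called higher, so the share of the list is that of all genes. Ctnnbip1 read 9.73, 15.8 and 25.3 CPM in the TgSpi1FA-/- L libraries and 2.49 to 3.94 CPM in TgSpi1FA-/- PL libraries. Against TgSpi1FA+/+ PL libraries its log2 fold change was 1.33, and it was not called (edgeR, adjusted p = 0.0726). The list's median was 0.22, against 0.00 over all genes. Tle3, a Groucho corepressor, read 94.4, 113 and 123 CPM in the L libraries and 47.6 to 71.9 CPM in TgSpi1FA+/+ PL libraries, a rise of 0.91 on the log2 scale (edgeR, adjusted p = 0.0380) that passed in that comparison, where 7.01% of all genes were called.

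General coactivators (0 of 12) and the destruction complex with the SCF ligase (0 of 16), in which Fbxw11 is the paralogue of Btrc, held no called gene between the TgSpi1FA-/- stages, with median log2 fold changes of -0.12 and 0.14. Of all genes, 13.3% were called in this comparison, and whether these short lists differ from that share was not tested. Membrane partners of beta-catenin held 0 of 4, with a median of 0.56.

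Of 27 genes listed as TCF/LEF targets, 21 were in the table and 8 passed the filter, with a median of -0.15. Of the 8, 1 was called, where 13.3% of all genes were, so the count is near that of any genes. It was Rnf43, a ubiquitin ligase that removes Wnt receptors, which fell by 1.96 on the log2 scale (adjusted p = 0.0295), from 17.9 to 46.3 CPM in TgSpi1FA-/- PL to 6.72 to 9.40 CPM in L libraries. Axin2, a widely used readout of the pathway, had 5, 18 and 0 counts in the TgSpi1FA-/- L libraries and 0 in every PL library of model 1, too few to test. Chosen after their values were seen, the targets Lgr5 and Nkd1 stood out in a single mouse. Lgr5, a stem cell receptor for R-spondins, had 6, 912 and 4 counts in the TgSpi1FA-/- L libraries, and Nkd1, a feedback inhibitor of Wnt signalling, had 1, 806 and 0, with 0 counts of each in all 7 PL libraries. Library leukemic_28 was also the library with the highest Tcf7, at 68.4 CPM. Library leukemic_39, with Tcf7 at 38.96 CPM and the highest Bcl9 and Pygo1, had 4 and 0 counts of these targets. Ascl2, a further target, was highest in leukemic_39, with 8, 58 and 242 counts.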

How the data were processed

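Poly(A) RNA-seq libraries of 17 mice were analysed from gene counts deposited by the authors, who per the submitters' processing notes used bcl2fastq 2.17.1.14, STAR 2.5.3a and HTSeq 0.6.1p1 with mm10. The counts were not normalised before deposit. Members and gene lists were chosen with earlier results of these data known. Each table was fitted alone in R 4.3.3 with edgeR 4.0.16 (TMM, filterByExpr by group, quasi-likelihood test over all genes that passed, Benjamini-Hochberg adjustment), all groups of a table sharing the dispersion. Calls needed an adjusted p under 0.05 with at least a 1.5-fold change. The models were never fitted together. Named were all members, Fanca and Spi1, up to 4 called genes per list and direction, any gene called in the tested comparisons, and the 3 genes most like Tcf7 and Tcf7l2. Nras and the uncalled list genes that are named were picked outside this rule. Alternatives were DESeq2 1.42.0, its size factors, other filters, compared groups alone, preleukemic_445 and preleukemic_479 summed, and leaving out each library. A byte-for-byte copy of the model 2 table was not used. Positions were read from GENCODE M21 (build GRCm38), in which 99.8% of the model 1 gene IDs were found, and promoters from RefSeq. Intervals on counts cover counting error only.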

Additional observations from a re-analysis of the deposited data

Results flagged for a closer look

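Btrc in TgSpi1FA+/+ PL blasts of model 1 had 1 library far from the others. Mouse preleukemic_138 read 31.7 CPM where preleukemic_445, preleukemic_451 and preleukemic_479 read 16.5 to 17.7 CPM, a gap of 0.921 of the whole range by Dixon's criterion. In the further table preleukemic_138 was again highest, at 27.9 CPM.

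Tcf7 in TgSpi1FA+/+ PL blasts of model 2 was set apart by preleukemic_633, which read 3.68 CPM where preleukemic_663, preleukemic_812 and preleukemic_837 read 0 to 0.0742 CPM, a gap of 0.980 of the range. The criterion flags about 5% of such groups by chance.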

How the results depend on the processing

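No paired analysis was possible because replicate numbers are mouse numbers and no mouse is in more than 1 group. Among the values of single members in the 2 tested comparisons, 149 alternatives kept direction and call and 7 reversed. In the comparisons with leukaemic TgSpi1FA-/- blasts, which are given as descriptions, 173 fold changes stayed within 1 SD of the libraries and 2 moved. Leaving out 1 library can seldom shift a mean by the SD of those same libraries, so this count says little about stability. Before leukaemia (TgSpi1FA-/- against TgSpi1FA+/+) and in model 2, 0 members were called under every alternative, DESeq2 included. Before leukaemia the genes called went from 1 to 250 with DESeq2 and 4 with no filter, and ranged from 1 to 16 (16 without preleukemic_451) with single libraries left out. Reversed were Bcl9l (0.12 without preleukemic_224, 0.22 without preleukemic_451), Ctnnb1 (0.02 without preleukemic_40, 0.048 without preleukemic_138) and Tcf7 (-0.80 without preleukemic_40), over ranges of -1.47 to 0.22, -0.18 to 0.05 and -0.80 to 1.38. In model 2 the genes called went from 0 to 470 with DESeq2 and ranged from 0 to 1 with libraries left out. Bcl9 reversed to 0.08 without leukemic_921 and 0.62 without preleukemic_633 (range -0.76 to 0.62). Between the TgSpi1FA-/- stages, 1782 genes were called, 3100 with DESeq2 and 414 (without leukemic_28) to 2319 (without leukemic_26) with libraries left out. The 5 members called were 7 with DESeq2, 2 with only the compared groups and 1 to 6 with libraries left out. Bcl9l moved to 2.48 without preleukemic_77, and Tcf7 over TgSpi1FA+/+ PL to 6.90 in the further table. The cause of these changes was not tested. With 3 or 4 mice a group and 1 library each, the intervals of Tcf7, Tcf7l2, Bcl9 and Bcl9l are wide, and Lef1, Tcf7l1 and, in preleukaemic blasts, Pygo1 and Tcf7 rest on a few counts.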
